A study of Mus musculus with 3 samples.

Results

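A set of 10 cell adhesion genes was followed across the cells of mouse blastocysts. They are the cadherin Cdh1, its cytoplasmic partners Ctnnb1 and Ctnna1, the surface protein Epcam, the integrin subunits Itga5, Itga6, Itgav, Itgb1 and Itgb5, and the immunoglobulin-family protein Pecam1. They were chosen by name, and all were found among the 23154 gene symbols of the count tables. The cells came from 3 libraries of 96 cell barcodes each, made from embryos at embryonic day 3.5 of a Klf2-H2Bmcherry line and called replicates 1, 2 and 3. Per the labels' protocols, cells were picked from mCherry-positive embryos of static and of shaking culture, and the labels do not say which cell or library had which. All libraries therefore form 1 group, and no culture condition was compared. Cells had been freed of the zona pellucida by protease and separated in medium without calcium and magnesium, which loosens cadherin contacts. Of the 288 barcodes, 225 had a count in at least 2000 genes and were kept as cells, 83 in replicate 1, 64 in replicate 2 and 78 in replicate 3.

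Cadherins join neighbouring cells in the presence of calcium, and beta-catenin and alpha-catenin link their tails to actin. E-cadherin, the product of Cdh1, holds the cleavage-stage embryo together at compaction and seals the outer layer of the blastocyst, the trophectoderm. Integrins are pairs of an alpha and a beta subunit that bind extracellular matrix. Epcam is an epithelial surface protein, and Pecam1, best known from endothelium and platelets, is also found on the inner cell mass of the mouse blastocyst. Krt8 and Krt18, the paired keratins of simple epithelia, are among the first intermediate filaments of the trophectoderm and served here as the scale along which the adhesion genes were read.

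Within each library the cells were ranked by their summed Krt8 and Krt18 level, in counts scaled to a total of 1000000 (CPM), and divided into 3 ranges of near-equal size, called keratin-high, keratin-middle and keratin-low. The keratin-high and keratin-low ranges held 27 cells each in replicate 1, 21 in replicate 2 and 26 in replicate 3, so 74 cells each in all, and 77 cells lay between them. Median keratin levels were 3663, 5355 and 5595 CPM in the keratin-high cells of replicates 1, 2 and 3, against 80.8, 257 and 147 CPM in their keratin-low cells. These are ranges of a continuous value and not cell types. Within 25% of the keratin-high limit, on either side of it, lay 6, 6 and 8 cells of replicates 1, 2 and 3. Around the keratin-low limit there were 11, 6 and 8 cells. Markers that took no part in the ranking give its setting. The summed level of 15 other trophectoderm markers, Cdx2 and Gata3 among them, was 5204 ± 2005 CPM in keratin-high and 727 ± 160 CPM in keratin-low cells (SD, n = 3 libraries). That of 17 inner cell mass and epiblast markers, of which Sox2 was listed at 0, was 673 ± 301 CPM in keratin-high and 1658 ± 146 CPM in keratin-low cells.

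The libraries were not alike. Their totals were 30573711, 27610866 and 54444536 counts, with medians per cell of 286484, 345414 and 608734 in replicates 1, 2 and 3, and ribosomal protein genes took 13.4%, 4.21% and 13.2% of the counts. No cell name was shared between libraries, but each name opens with the label of its library, so the naming fixed this. In replicate 1, the 29 cells of barcodes 33 to 64 stood apart from the other 54. Their summed oocyte markers reached 373 CPM, against 26.1 and 28.8 CPM in barcodes 1 to 32 and 65 to 96 of that library, and ribosomal protein genes took 5.96% of their counts, against 19.2% and 20.9%. They made up 22 of the 27 keratin-low cells of replicate 1 and 1 of its 27 keratin-high cells. Tests along the keratin scale and thinned shares are therefore given for all cells and again with these 29 cells left out and the remaining cells of replicate 1 divided anew, 18 per range, an alternative chosen after seeing the data. The numbers are those of the tables' column names, and nothing states what they mean.

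The member with the largest fold higher in keratin-high cells was Epcam, on chromosome 17 (mm10, 87635979 to 87651129, plus strand). Its upstream sequence is shown because it carries both orientations of the E box, and that of Itgb5 because it carries the same letters in a gene for which no difference was detected. Both are the 250 bases before the transcription start in RefSeq on GRCm38.p6, chr17:87635729-87635978 and chr16:33829415-33829664, plus strand. Capitals mark the E box (CAGGTG, or CACCTG on the other strand), the GC box (GGGCGG or CCGCCC) and the CACCC box (CCACCC or GGGTGG), each searched on both strands.
Epcam: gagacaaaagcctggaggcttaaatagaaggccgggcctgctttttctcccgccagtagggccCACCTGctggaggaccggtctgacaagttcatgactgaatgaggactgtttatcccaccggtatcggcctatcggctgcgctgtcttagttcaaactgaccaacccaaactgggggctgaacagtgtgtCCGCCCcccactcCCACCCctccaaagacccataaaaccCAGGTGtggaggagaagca
Itgb5: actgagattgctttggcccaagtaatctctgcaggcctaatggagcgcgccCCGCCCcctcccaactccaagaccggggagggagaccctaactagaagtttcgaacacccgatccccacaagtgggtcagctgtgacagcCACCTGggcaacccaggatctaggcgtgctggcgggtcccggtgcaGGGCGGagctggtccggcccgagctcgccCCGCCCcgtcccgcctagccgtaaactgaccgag
In Epcam the E box letters lie 187 to 182 and 19 to 14 bases before the start, a GC box 58 to 53 and a CACCC box 45 to 40 bases before it. In Itgb5 an E box lies 109 to 104 bases before the start, with GC boxes at 199 to 194, 63 to 58 and 34 to 29. Of all 32851 such windows, 17.2% hold the E box letters, 32.7% the GC box and 28.1% the CACCC box. The TEAD motif GGAATG, the AP-2 motif GCCNNNGGC and the motif of the GATA family, which is AGATAA, held by 12.6%, 13.7% and 9.99% of the windows on either strand, were searched too and are in neither window. The Epcam window has 8 CpG dinucleotides at a GC content of 56.4%, against 18 at 65.2% in Itgb5. No binding was measured.

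Detection across cells divided the members before any comparison. A count was present in 221 of the 225 cells for Cdh1, 221 for Epcam, 220 for Ctnna1, 204 for Itgb5 and 201 for Itgb1. Ctnnb1 had one in 178 cells, Pecam1 in 170, Itga5 in 144 and Itgav in 93. Itga6, the alpha subunit of laminin receptors, was listed at 0 in every cell and gets no level. It was among the 5706 of the 23154 symbols for which this held. Sox2, a regulator of the inner cell mass, was also among those, and a 0 in these tables is not read as missing expression. The 63 barcodes that were not kept held 1626 CPM of member counts, against 1926 CPM in the kept cells, and detection of a member by 1 count in a cell is not read as its expression.

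Depth changes such shares, so each cell was thinned to 20000 counts, which left out 8 shallower cells. Ctnna1 was then detected in 100% of keratin-high cells of every library, and in 91.0% ± 15.5 of keratin-low cells (SD, n = 3 libraries); without the 29 cells it was 100% in both ranges of every library. For Epcam the shares were 100% of keratin-high cells in every library, 91.9% ± 4.01 of keratin-middle and 77.0% ± 9.63 of keratin-low cells. With the 29 cells left out, 86.0% ± 15.1 of keratin-low cells had an Epcam count, and replicate 1 reached 100% in both ranges, so the ends of the scale overlapped. Pecam1 ran the other way, with 20.97% ± 5.53 of keratin-high, 43.6% ± 14.4 of keratin-middle and 66.6% ± 7.75 of keratin-low cells, and with 19.8% ± 3.77 of keratin-high and 65.9% ± 8.97 of keratin-low cells without the 29 cells. With all cells, Pecam1 stood lower in each library in keratin-high than in keratin-low cells, 26.9% against 57.7% in replicate 1, 20% against 70% in replicate 2 and 16% against 72% in replicate 3. The unthinned shares for Pecam1 were 74.1%, 66.7% and 46.2% of keratin-high cells, against 88.9%, 90.5% and 88.5% of keratin-low cells. Cdh1, Ctnnb1, Ctnna1, Itga5, Itgav, Itgb1 and Itgb5 had thinned shares whose library values overlapped between the 2 ends of the scale in both versions. For Itgb1 they averaged 69.4% ± 23.5 of keratin-high and 48.8% ± 10.8 of keratin-low cells with all cells, and 68.7% ± 22.4 of keratin-high and 67.5% ± 24.1 of keratin-low cells without the 29 cells.

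**Figure D1:**
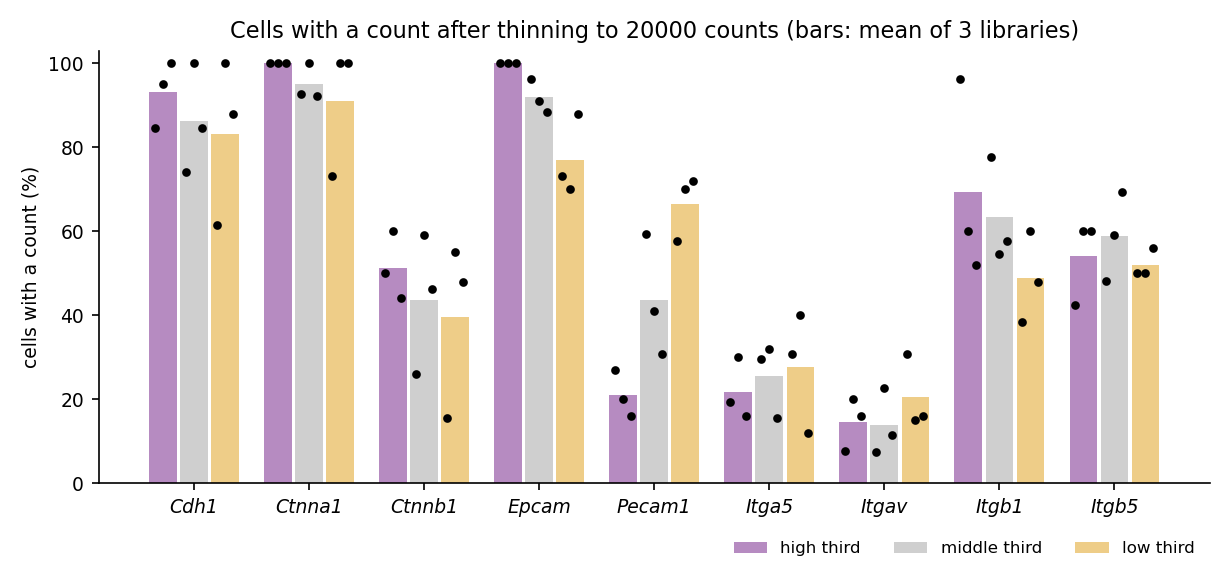
Share of cells with a count (percent) after thinning every cell to 20000 counts, for 9 adhesion genes in the keratin-high, keratin-middle and keratin-low ranges, all cells taken. Bars are means of 3 libraries and points are the libraries; Pecam1 climbs towards the keratin-low end and Epcam towards the keratin-high end.

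The members differed between whole libraries to unlike degrees. Cdh1 summed over all cells was 90.7, 884 and 280 CPM in replicates 1, 2 and 3, a ratio of 9.75 between the highest and the lowest. Ctnnb1 had a ratio of 7.01, Itga5 of 6.14, Itgav of 5.82, Ctnna1 of 5.02, Pecam1 of 3.47 and Itgb1 of 2.93. The ratios of Itga5 and Itgav rested on few cells. In replicate 1, 1 cell held 52.5% of the Itga5 counts and 2 cells held 89.1% of the Itgav counts. Barcodes 1 to 32 and 65 to 96 of that library had 3.58 and 3.51 CPM of Itgav. Epcam and Itgb5 were nearest to level. Epcam had 713, 546 and 552 CPM, a ratio of 1.31. Itgb5 had 77.4, 76.6 and 64.9 CPM, a ratio of 1.19, but 1 cell held 50.8% of its counts in replicate 1. Replicate 2 was highest for Cdh1, Ctnnb1, Ctnna1, Itgb1 and Pecam1. Since the labels put all 3 libraries in 1 group, these are differences between replicates, and each comparison below was made within a library.

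Counts of the cells in each range were summed per library, and the keratin-high sums were tested against the keratin-low sums by the quasi-likelihood test of edgeR, blocked on library, with Benjamini-Hochberg adjustment over all 12154 genes tested, the 2 keratins not counted. With all cells, 17 genes (0.14%) passed an adjusted p of 0.05 as higher in keratin-high cells and 2 (0.0165%) as lower. None of the 9 members tested was among them. Epcam and Pecam1, 2 of the 9, had an unadjusted p below 0.05, as did 1246 of all 12154 genes. DESeq2, run as an alternative, called 1 member higher and 1 lower. Its calls over all genes are given with the other adhesion lists below. Without the 29 cells that stood apart, 11796 genes were tested and 390 (3.31%) were higher and 259 (2.2%) lower. Of the same 9 members, Epcam and Cdh1 were then higher and Pecam1 lower. Because library was a block, these p-values rest on how the keratin-high to keratin-low difference varied across the 3 libraries. The test also draws each gene's variance towards that of the other genes tested. The p-values and intervals therefore do not measure a gene's own spread between libraries alone. Nothing says that the libraries came from separate embryo collections, so the variation between them may be technical. The ranges were taken as fixed in the test, and any error in drawing them is left out.

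Epcam was summed at 1556, 987 and 837 CPM in the keratin-high cells of replicates 1, 2 and 3, against 132.5, 129 and 244 CPM in the keratin-low cells. Every keratin-high library lay above every keratin-low one, with the keratin-middle sums between them at 631, 509 and 485 CPM. The means were 1127 ± 379 CPM in keratin-high and 169 ± 65.2 CPM in keratin-low cells (SD, n = 3 libraries), a log2 fold change of 2.69 (SE 0.57, 6.44-fold, adjusted p = 0.110 by edgeR). Leaving out the 29 cells raised the keratin-low sum of replicate 1 and gave means of 1117 ± 362 CPM in keratin-high and 417 ± 403 CPM in keratin-low cells. The ranges then overlapped between libraries, but within each library keratin-high cells were the higher, and the log2 fold change was 1.81 (SE 0.33, 3.497-fold, adjusted p = 0.0167 by edgeR). With all cells, the medians per cell were 1599, 1062 and 708 CPM in keratin-high cells, against 53.1, 102 and 172 CPM in keratin-low cells. In replicate 1 without the 29 cells they were 1570 CPM in keratin-high and 655 CPM in keratin-low cells.

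Part of that span belonged to the cells that stood apart. Their median Epcam level was 47.8 CPM, against 1038 and 1427 CPM in the other barcodes of replicate 1. Barcodes 33 to 64 also had the lowest Epcam median in replicate 2, at 137 CPM, against 1052 CPM in barcodes 1 to 32 and 509 CPM in barcodes 65 to 96, while in replicate 3 the lowest was that of barcodes 65 to 96, at 322 CPM. The 6 oocyte markers, none at 0, summed to 14.03 ± 6.38 CPM in keratin-high and 85.5 ± 116 CPM in keratin-low cells with all cells, ranging from 10.1 to 21.4 and from 9.40 to 218 CPM. Without the 29 cells they summed to 13.7 ± 5.85 CPM in keratin-high and 25.5 ± 14.8 CPM in keratin-low cells; Epcam is given above for both versions. Within barcodes 1 to 32 alone, Epcam had a log2 fold change of 1.96 (adjusted p = 0.00117 by edgeR). It was 1.27 in barcodes 33 to 64 (adjusted p = 0.919) and 0.99 in barcodes 65 to 96 (adjusted p = 0.213), both in the same direction and neither past the threshold.

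**Figure D2:**
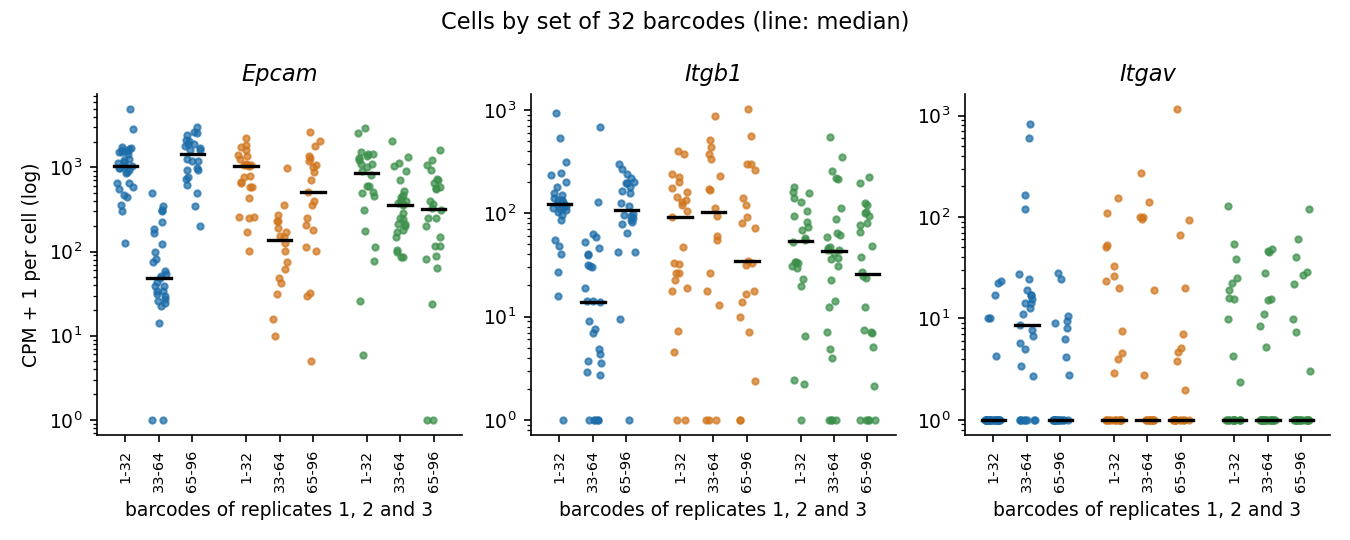
Level per cell (CPM + 1, log axis) of Epcam, Itgb1 and Itgav by set of 32 barcodes in replicates 1, 2 and 3; each point is a cell and each line a median. Barcodes 33 to 64 of replicate 1 lie low for Epcam (median 47.8 CPM) and Itgb1 (12.8 CPM) and hold the highest Itgav cells of that library.

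Pecam1 (chromosome 11, mm10, 106654217 to 106750628, minus strand) lay at the other end of the scale. It summed to 20.4, 23.2 and 16.1 CPM in keratin-high cells, against 148, 387 and 100.04 CPM in keratin-low cells of replicates 1, 2 and 3. No library of one range reached those of the other, and the keratin-middle sums of 66.8, 67.9 and 43.1 CPM fell between. The means were 19.9 ± 3.55 CPM in keratin-high and 212 ± 154 CPM in keratin-low cells (SD, n = 3 libraries), a log2 fold change of -3.25 (SE 0.64, 9.50-fold lower, adjusted p = 0.0860 by edgeR). One keratin-low cell of replicate 1 held 49.6% of the Pecam1 counts of its range. With the 29 cells left out, the means were 17.9 ± 4.62 CPM in keratin-high and 185 ± 176 CPM in keratin-low cells, still without overlap, and the log2 fold change was -3.00 (SE 0.40, 8.00-fold lower, adjusted p = 0.00421 by edgeR). Pecam1 was lower in the keratin-high cells of 3 of 3 libraries in both versions.

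Pecam1 is also an endothelial gene, so that cell type's markers were read beside it. The 8 markers summed to 74.5 ± 8.17 CPM in keratin-high and 71.6 ± 30.9 CPM in keratin-low cells, ranging from 65.04 to 79.4 and from 45.5 to 106 CPM. One of them, Kdr, was listed at 0. Of 7 blood markers 5 were at 0, the globins among them. Since 5706 of all 23154 symbols were at 0 in every cell, these zeros are not read as absence of either cell type. Across the cells of a library, Pecam1 had a Spearman rho with the inner cell mass and epiblast markers of 0.404, 0.632 and 0.466 in replicates 1, 2 and 3, and of -0.030, -0.115 and 0.101 with the endothelial markers. Those cells share library and depth, and the rho with a cell's total count was 0.192, 0.251 and 0.049. Within keratin-low cells alone, with the 29 cells left out, Pecam1 and the inner cell mass markers had rho of 0.445, 0.284 and 0.262 over 65 cells.

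**Figure D3:**
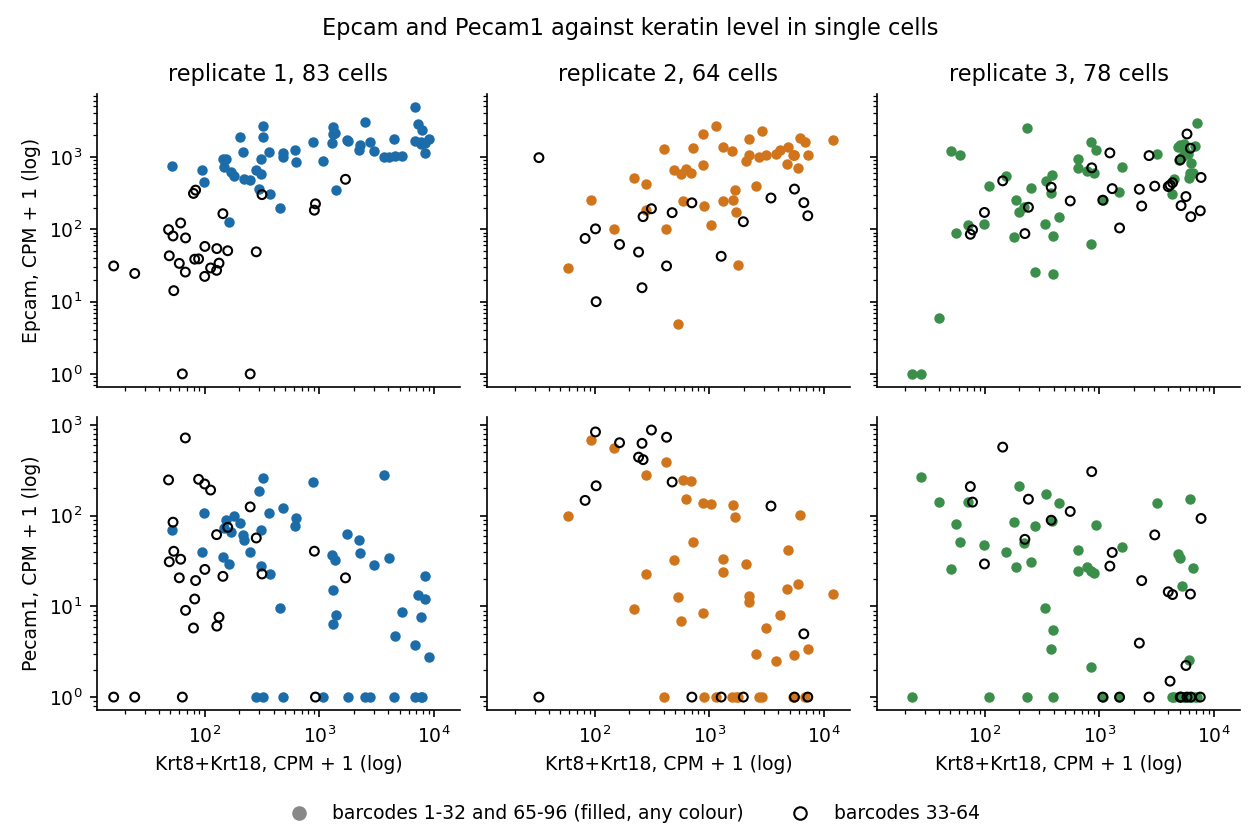
Epcam (upper row) and Pecam1 (lower row) in single cells against the summed Krt8 and Krt18 level, all as CPM + 1 on log axes, for replicates 1, 2 and 3 with 83, 64 and 78 cells. Filled points are barcodes 1 to 32 and 65 to 96, open points barcodes 33 to 64; Epcam climbs with the keratins and Pecam1 falls.

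Rank correlations with the keratins across the cells of a library were, averaged over libraries, highest in Epcam (0.609) and lowest in Pecam1 (-0.462). Epcam had rho of 0.767, 0.547 and 0.513 in replicates 1, 2 and 3, and Pecam1 of -0.318, -0.561 and -0.506. In replicate 1 they were, when the 29 cells were left out, 0.580 for Epcam and -0.540 for Pecam1. Between themselves Epcam and Pecam1 had -0.222, -0.417 and -0.221. Cdh1 and Ctnna1, whose proteins join at the membrane, had 0.248, 0.403 and 0.221, while Cdh1 and Ctnnb1 had 0.008, 0.001 and -0.121. Sparse counts limit such values for the low members.

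Of the cadherin complex, Cdh1 (chromosome 8, mm10, 106603351 to 106670246, plus strand) was summed at 115.5, 1137 and 387 CPM in keratin-high cells, against 86.2, 773 and 213 CPM in keratin-low cells. The spread between libraries was wider than the gap within any of them, and keratin-high cells were the higher in 3 of 3 libraries. With all cells, the log2 fold change of 0.54 did not pass (SE 0.50, 95% interval -0.58 to 1.67, adjusted p = 0.760 by edgeR). With the 29 cells left out it was 0.79 (SE 0.16, 1.73-fold, adjusted p = 0.0292), at means of 550 ± 525 CPM in keratin-high and 349 ± 375 CPM in keratin-low cells. Cdh1 was called in 2 of 21 alternative settings, of which the other was barcodes 1 to 32 alone. After thinning, 84.6%, 95% and 100% of keratin-high cells had a Cdh1 count, against 61.5%, 100% and 88.0% of keratin-low cells; in replicate 1 without the 29 cells the shares were 88.2% of keratin-high and 77.8% of keratin-low cells.

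Ctnna1, encoding alpha-catenin, which binds beta-catenin to actin, had 377, 1413 and 591 CPM in keratin-high cells, against 159, 1207 and 309 CPM in keratin-low cells. Keratin-high cells were the higher in each library, by a log2 fold change of 0.73 over the fit (95% interval -0.41 to 1.88, adjusted p = 0.668 by edgeR). It was 0.51 when the 29 cells were left out (95% interval 0.11 to 0.90, adjusted p = 0.150), which did not pass. The cells that stood apart had a median of 58.8 CPM of Ctnna1, against 301 and 323 CPM in the other barcodes of replicate 1. Ctnna1 lies on chromosome 18 (mm10, 35118859 to 35254779, plus strand) and shares 95 exonic bases with Lrrtm2, which was listed at 0.

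Ctnnb1 encodes beta-catenin, which serves both at junctions and in Wnt signalling. Its sums were 16.9, 89.2 and 51.9 CPM in keratin-high cells and 5.2, 73.8 and 57.5 CPM in keratin-low cells. Replicates 2 and 3 lay close to level, and the gap came from replicate 1. The log2 fold change was 0.52 with all cells (95% interval -0.92 to 1.96, adjusted p = 0.823 by edgeR) and -0.05 without the 29 cells (95% interval -0.72 to 0.62, adjusted p = 0.950). Of the 5192 exonic bases of Ctnnb1 (chromosome 9, mm10, 120929216 to 120960507, plus strand; GENCODE M21), 782 (15.1%) overlap other genes, 759 of them Ulk4 on the opposite strand. The strand setting of the counting is not given, so reads from that stretch cannot be told apart.

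None of the subunits Itga5, Itgav, Itgb1 and Itgb5 passed the test in any of the settings run. Itga6 (chromosome 2, mm10, 71745616 to 71858416, plus strand) had no counts to test. Itgb1 (chromosome 8, mm10, 128685654 to 128733200, plus strand), the beta subunit shared by most matrix receptors, had 106.5, 128 and 47.2 CPM in keratin-high cells, against 29.2, 147.5 and 56.8 CPM in keratin-low cells. Keratin-high cells were higher in replicate 1 alone, and the log2 fold change was 0.37 (95% interval -1.09 to 1.83, adjusted p = 0.876 by edgeR). With the 29 cells left out the sign turned to -0.32 (95% interval -0.82 to 0.17, adjusted p = 0.481). Those cells had a median of 12.8 CPM of Itgb1, against 122 and 107 CPM in the rest of replicate 1. The rho of Itgb1 with the keratins in replicate 1 was 0.503 with them and 0.043 without them, and -0.005 and 0.089 in replicates 2 and 3.

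Itgb5 (chromosome 16, mm10, 33829665 to 33949338, plus strand), which pairs with the alpha subunit of Itgav in a vitronectin receptor, had 45.6, 76.3 and 54.0 CPM in keratin-high cells, against 122.5, 54.0 and 75.8 CPM in keratin-low cells. One cell of replicate 1 held 79.5% of the keratin-low counts there. The log2 fold change was -0.54 (95% interval -1.97 to 0.89, adjusted p = 0.817 by edgeR), and -0.02 without the 29 cells (95% interval -0.69 to 0.64, adjusted p = 0.978). Means were then 58.0 ± 16.6 CPM in keratin-high and 57.7 ± 16.5 CPM in keratin-low cells. Of the members, Itgb5 had, in that version, the smallest fitted difference along the keratin scale. Its ratio between libraries over all cells was the lowest, but 1 cell held 50.8% of its counts in replicate 1.

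Itgav (chromosome 2, mm10, 83724397 to 83806916, plus strand) and Itga5 (chromosome 15, mm10, 103344286 to 103366763, minus strand), the alpha subunits of vitronectin and fibronectin receptors, rested on few cells. Itgav had 3.2, 18.6 and 15.99 CPM in keratin-high cells, against 167, 26.2 and 14.5 CPM in keratin-low cells. The high sum of replicate 1 came from 2 cells that held 93.7% of it. The log2 fold change was -1.62 (95% interval -4.37 to 1.13, adjusted p = 0.703 by edgeR) with all cells, and 0.04 (95% interval -1.26 to 1.33, adjusted p = 0.982) without the 29 cells.

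Itga5 had 15.9, 49.5 and 14.2 CPM in keratin-high cells, against 139, 15.3 and 13.1 CPM in keratin-low cells. One cell held 68.0% of the keratin-low counts of replicate 1. The log2 fold change was -0.36 (95% interval -2.68 to 1.96, adjusted p = 0.929 by edgeR) with all cells, and 0.41 (95% interval -0.84 to 1.66, adjusted p = 0.747) without the 29 cells. With all cells, the intervals of both alpha subunits span more than a doubling in either direction, so no difference along the keratin scale was detectable with these libraries. Itgav shares 634 exonic bases with a transcript on the opposite strand that is not in the count tables.

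**Figure D4:**
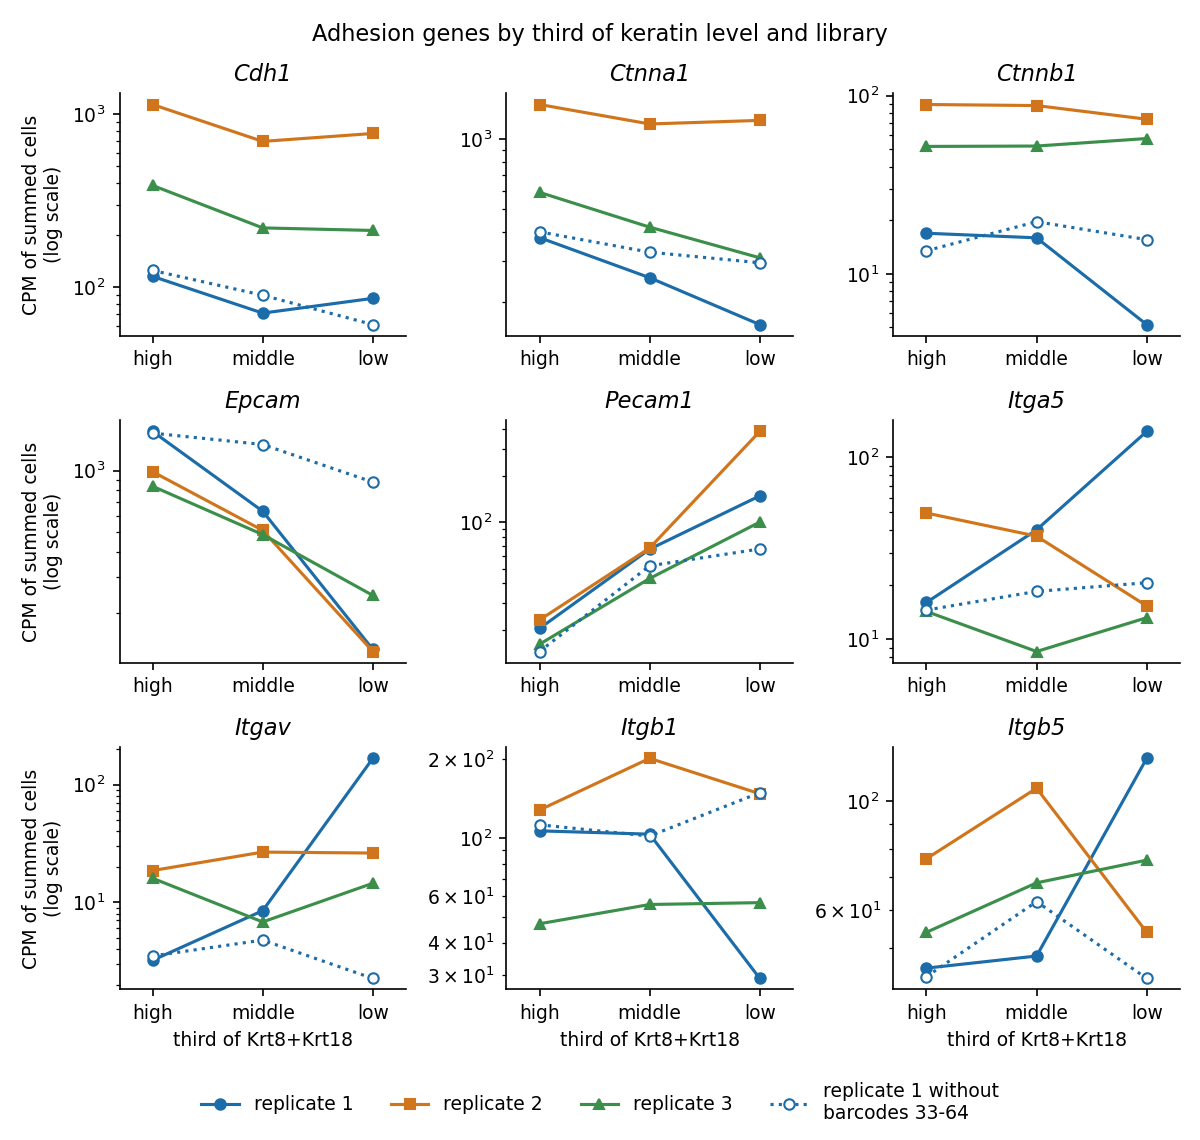
CPM of summed cells (log axis, scaled per gene) for 9 adhesion genes in the keratin-high, keratin-middle and keratin-low ranges of each library. Dotted lines are replicate 1 without barcodes 33 to 64; Epcam and Pecam1 run in opposite directions in each library, and the high keratin-low values of Itga5, Itgav and Itgb5 in replicate 1 are not on its dotted lines.

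**Figure D5:**
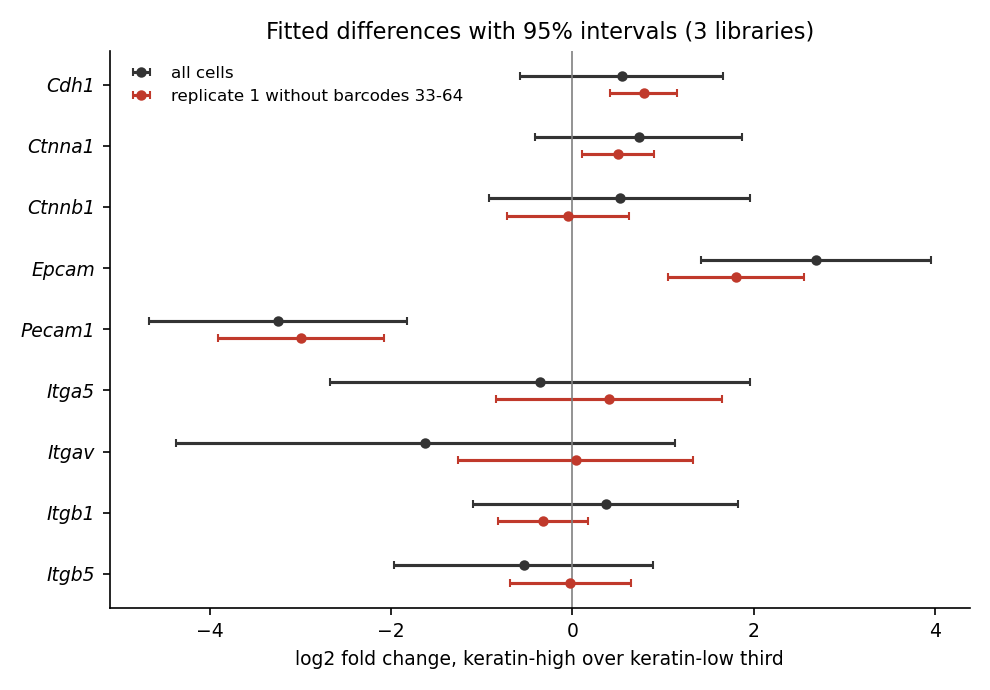
Fitted log2 fold change of keratin-high over keratin-low cells for 9 adhesion genes, for all cells and for replicate 1 without barcodes 33 to 64. The 95% intervals are from the edgeR fit of 3 libraries, with variances drawn towards those of other genes. Intervals of Epcam lie above 0 and those of Pecam1 below 0 in both versions, and those of Cdh1 and Ctnna1 above 0 in the second.

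The profiles most like those of the members were sought among 6721 genes with a count in at least 50% of the cells, as the mean over libraries of the within-library Spearman rho. Epcam, Ctnna1, Pecam1 and Cdh1 had genes at 0.5 or more in at least one version. Epcam was most like Cldn7, a claudin of epithelial junctions (0.662), Clic4 (0.645) and Krt8 (0.627), and without the 29 cells like Cldn7 (0.642), Clic4 (0.629) and Neu1 (0.609). Ctnna1 was most like Tpm4, a tropomyosin (0.526), and Wdr1, an actin-disassembly factor (0.512), with all cells only. Without the 29 cells Pecam1 was most like Spic (0.565), Epha4 (0.529) and Kif16b (0.524), and Cdh1 like Cdk14 (0.535) and Myh10, a non-muscle myosin (0.522). No gene reached that value for Ctnnb1, Itga5, Itgb1 or Itgb5, and Itgav, with a count in fewer than 50% of the cells, was not compared.

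Around the members, 123 other symbols of adhesion were read from 7 lists: other cadherins and nectins, other catenins, desmosomes, other integrin subunits, integrin adaptors, other surface proteins and integrin ligands. Of these, 118 were in the tables, 108 had a count and 80 were tested. With all cells, 1 was higher and 0 lower by edgeR, where 0.14% and 0.0165% of all genes tested were. An unadjusted p below 0.05 was reached by 23 of the 80, and by 1246 of all 12154 genes. DESeq2 called 4 higher and 7 lower, of 373 and 510 over all genes. Their median log2 fold change was -0.30, against -0.01 over all genes tested.

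When the 29 cells were left out, 76 were tested, and 5 were higher and 5 lower by edgeR, where 3.31% and 2.2% of all genes were. An unadjusted p below 0.05 was reached by 29 of them and by 2288 of all 11796 genes. The median log2 fold change of the 76 was 0.18, against -0.0038 over all genes. Of 5 desmosome genes tested 2 were higher, Dsp by a log2 fold change of 1.89 (adjusted p = 0.0108 by edgeR) and Dsc2 by 3.92 (adjusted p = 0.0390), plaque and cadherin parts of that junction. Among 18 integrin adaptors Parva, which links integrins to actin, was higher (5.11, adjusted p = 0.0156). Its keratin-low sums were 0, 0.51 and 1.99 CPM in replicates 1, 2 and 3, against 13.3, 23.9 and 27.5 CPM in keratin-high cells. Those of Dsc2 were 0.41, 17.4 and 0.50 CPM, against 10.5, 69.3 and 28.1 CPM. Folds over sums so near 0 are imprecise. Of 14 other surface proteins 2 were higher, with the tetraspanin Cd63 (0.68, adjusted p = 0.00861) among them. None of 10 other integrin subunits and none of 12 other catenins and partners passed; at an unadjusted p below 0.05 there were 1 and 2.

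The genes that were lower without the 29 cells were 4 of 11 integrin ligands and 1 of 6 cadherins and nectins. Col4a1, a collagen IV chain of basement membranes, had 8.66, 9.49 and 13.3 CPM in keratin-high cells, against 87.6, 122 and 60.8 CPM in keratin-low cells, a log2 fold change of -3.09 (adjusted p = 0.00391 by edgeR). Every keratin-low library was above the keratin-high ones. Its partner Col4a2 followed at -2.99 (adjusted p = 0.00861), the laminin chain Lamb1 at -2.27 (adjusted p = 0.00212), Spp1, an integrin ligand of the extracellular matrix, at -1.999 (adjusted p = 0.00611) and the giant cadherin Fat1 at -1.51 (adjusted p = 0.0268). Col4a1 and Col4a2 are also on the list of primitive endoderm markers, which summed to 2211 ± 1446 CPM in keratin-high and 822 ± 399 CPM in keratin-low cells there, and the part of these cells in the result was not tested. Immediate early genes, which dissociation can induce, summed to 120 ± 84.8 CPM in keratin-high and 65.6 ± 43.6 CPM in keratin-low cells. By library they had 144, 191 and 26.2 CPM in keratin-high cells, against 116, 38.0 and 42.8 CPM in keratin-low cells of replicates 1, 2 and 3. Replicate 3 thus ran the other way, and the part of these genes was not tested either.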

How the data were processed

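Per the labels' protocols, single cells were prepared with a modified Smart-seq2 method, with cell barcodes and molecular identifiers of 8 nt each, and 3' ends were sequenced. The deposited values were raw counts per gene symbol and barcode. CASAVA 1.8, HISAT2, HTSeq and mm10 stand in the submitters' processing notes. No source used here states the annotation, the strand setting or how the identifiers were used, so counts may be reads or molecules. The members and lists were chosen with earlier results of these data known.

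Barcodes with a count in at least 2000 genes were kept. No doublet caller was run, since the protocol used hand-picked cells; a further setting dropped 27 cells above 2.5 times the median total of their library and range. Keratin ranges were set within libraries, counts summed per library and range, filtered with filterByExpr, scaled by TMM and tested with edgeR 4.0.16 in R 4.3.3 (Benjamini-Hochberg adjusted p, threshold 0.05), with library as a block; DESeq2 1.42.0 and limma 3.58.1 served alternatives. Both sums of a pair come from 1 library, and their deviations from the range means had correlations of 0.43, 0.43 and 0.33. CPM are counts scaled to a total of 1000000 over the cells concerned, and log2 values use a pseudocount of 1. Counting error apart, 3 libraries limit precision. The procedure was tested on simulated data. Named genes were all members, the called genes of the lists, up to 8 per direction, and up to 3 most alike genes per member at a mean rho of 0.5 or more. Coordinates are from GENCODE M21, promoters from RefSeq, which matched 6 of the 10 members. A gene of the other adhesion lists is counted but not reported here by name.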

Additional observations from a re-analysis of the deposited data

Results flagged for a closer look

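The barcodes that were not kept as cells held 520 counts of the members among 319716 counts, 102 in the 13 barcodes of replicate 1, 235 in the 32 of replicate 2 and 183 in the 18 of replicate 3. They are given here because counts were present in data that the comparisons did not use. They amounted to 2159, 2544 and 1016 CPM of those barcodes in replicates 1, 2 and 3, against 1926 CPM over the kept cells.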

How the results depend on the processing

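Each result was recomputed under 21 alternatives, of which 2, the 29 cells left out and the mean of log2 values, were chosen after seeing the data; the cause of a change was not tested. Epcam and Pecam1 kept their direction in all 21 and passed in 9 each, with adjusted p from 0.0003217 to 0.919 and from 6.509e-06 to 0.912. Cdh1 kept its direction in 21 and passed in 2 (adjusted p from 0.0283 to 0.986). Ctnnb1, Ctnna1, Itga5, Itgav, Itgb1 and Itgb5 passed in none.

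Genes higher and lower over all genes (17 and 2 as reported) were 2 and 0 with DESeq2 size factors, 95 and 70 without a filter, 69 and 21 with 2 ranges, 0 and 0 with 4 ranges, 85 and 19 with common keratin limits, 47 and 12 with ranges within sets of 32 barcodes, 253 and 120 in barcodes 1 to 32, 0 and 0 in barcodes 33 to 64, 0 and 0 in cells with 4000 genes or more, 141 and 68 without very high totals, 127 and 44 as a trend, 373 and 510 with DESeq2, 235 and 33 with limma, and 390 and 259 without the 29 cells. Ranges by other trophectoderm markers gave 4 lower. Leaving out a library gave 11 to 253 and 6 to 153, the highest without replicate 1. With no replicate block, 0 and 0 genes and 0 list genes passed.

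Members higher were 1 and lower 1 without a filter, with common limits, without very high totals, as a trend, with DESeq2 and with limma, 2 and 1 in barcodes 1 to 32 and without the 29 cells, and 0 to 1 each without a library, 1 of each without replicate 1. Of the other adhesion genes (1 and 0), 0 were higher with 4 ranges, in barcodes 33 to 64, in barcodes 65 to 96, after thinning and with 4000 genes or more, 2 without very high totals, 3 with limma, 4 in barcodes 1 to 32 and with DESeq2, and 5 without the 29 cells; without a library 1 to 3. Lower were 1 without a filter, within barcode sets and without very high totals, 5 in barcodes 1 to 32 and without the 29 cells, 7 with DESeq2 and 0 to 5 without a library.

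Signs turned for members that did not pass. Without the 29 cells the log2 fold change was -0.049 for Ctnnb1, 0.41 for Itga5, 0.035 for Itgav and -0.32 for Itgb1. In barcodes 1 to 32 it was -0.46 for Ctnnb1, -0.39 for Itgb1 and 0.89 for Itgb5. In barcodes 33 to 64 it was -0.037 for Ctnna1 and 0.72 for Itga5. In barcodes 65 to 96 it was -0.047 for Ctnna1, 0.14 for Itgav, -0.054 for Itgb1 and 0.50 for Itgb5. Col4a1, an integrin ligand and not a member, also turned there, to 0.80. Without a library the log2 fold change ran from -1.58 to 0.91 for Itga5, from -0.23 to 0.83 for Itgb1 and from -1.03 to 0.0067 for Itgb5. The turned sign was in each without replicate 1. Other trophectoderm markers gave -0.16 for Itgb1 and 0.050 for Itgb5, ranges within barcode sets 0.37 for Itga5 and 0.11 for Itgb5, limma 0.35 for Itga5 and 0.22 for Itgb5, 4 ranges 0.24 and the loss of very high totals 0.13 for Itga5. The median of all genes moved by over 0.1 from -0.013 with no replicate block (-0.17), no filter (-0.12), common keratin limits (0.098), without replicate 3 (0.12) and with limma (0.13).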
